A study of Mus musculus with 21 samples.

Results

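The genes described here build, load and switch on the MHC class II antigen presentation pathway. They were chosen by symbol: H2-Aa, H2-Ab1, H2-Eb1, H2-DMa, H2-DMb1, Cd74 and Ciita. Of these 7, 6 have a probeset that carries their symbol alone, and all 6 passed the filter on low signals, among 13956 genes tested of 19938 named. The only probeset of H2-DMb1 also carries H2-DMb2, its near-identical neighbour, so no value is given for it. Members were chosen with earlier results of these arrays in view, in which H2-Aa and H2-Ab1 stood out in the cells taken 28 days after injury. Values of that pool are therefore given as a description with no test. Which other comparisons entered the choice is not recorded, so an adjusted p elsewhere is given as the scale of the fit and not as independent evidence.

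Muscle stem cells (satellite cells) were sorted as YFP-positive cells from mouse hindlimb and their RNA was put on Affymetrix Mouse Gene 1.0 ST arrays without culture. The study compared cells of noninjured mice (quiescent satellite cells, QSC) with cells of the limb opposite to a BaCl2 injury (contralateral satellite cells, CSC), in WT mice and in mice with conditional loss of TSC1, Rptor or cMet. It asks how stem cells at rest respond to an injury elsewhere in the body, and what part the mTORC1 kinase plays. There were 21 arrays of 12 pools in 8 groups, each pool from 3 to 4 mice.

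All groups carried Pax7CreER/+ and Rosa26REYFP/+, WT included, came from mice 3 to 5 months old and had received tamoxifen at least 2 weeks before. Cre was thus expressed under Pax7, which marks satellite cells, and a gene flanked by loxP sites is lost only where Cre has acted. WT QSC had 3 pools, WT CSC at 2.5 days had 3, and each other group had 1: WT CSC at 28 days, TSC1 KO QSC (TSC1flox/flox), Rptor KO QSC and Rptor KO CSC at 2.5 days (Rptrflox/flox), and cMet KO QSC and cMet KO CSC at 2.5 days (cMetflox/flox). The strain was mixed C57BL6, except in both cMet KO groups, which were C57BL6 mixed FVB. Between cMet KO and WT, strain and genotype cannot be told apart. Class II chains are among the most polymorphic genes between mouse strains, and array probes follow 1 reference sequence. The comparison that keeps the strain label constant is cMet KO CSC against cMet KO QSC. That label names a mixed strain and the class II alleles of each pool are not given, so these 2 pools may still differ in allele.

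A class II molecule is a pair of an alpha and a beta chain that shows peptides from engulfed material to helper T cells. The invariant chain, encoded by Cd74, fills its groove on the way to the endosome, cathepsins cut that chain down, and the H2-DM dimer exchanges the last fragment for peptide. B cells, dendritic cells and macrophages make class II constitutively, and interferon gamma can switch it on in other cells through CIITA, a coactivator that docks on factors bound to the X and Y boxes of these promoters. In muscle, resident immune cells are the best known source of class II, and satellite cells at rest are not.

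Promoter sequences of 4 of the 7 genes were at hand, for H2-Aa, H2-Eb1, H2-DMa and H2-DMb1 (RefSeq, GRCm38.p6, 250 bases before to 50 after the start). A search on both strands was made for a Y box, TGATTGG, which contains the ATTGG core recognised by NF-Y, and for GNAACT, an X-like core (part of the element bound by RFX). Both letters and spacing were chosen after these sequences were seen. In 3 of the genes a Y box followed an X-like core at a distance of 24 or 25 bases on the coding strand. These 3 stretches are shown because CIITA, the one regulator among the genes studied, is known to act through paired X and Y boxes. The X-like core and the Y box are in capitals, do not overlap, and have 10 bases on either side.
H2-Aa, chr17:34287857-34287914, minus strand: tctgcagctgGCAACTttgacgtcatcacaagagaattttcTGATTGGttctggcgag
H2-Eb1, chr17:34305766-34305822, plus strand: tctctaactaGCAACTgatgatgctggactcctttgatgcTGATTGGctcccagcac
H2-DMb1, chr17:34153087-34153144, plus strand: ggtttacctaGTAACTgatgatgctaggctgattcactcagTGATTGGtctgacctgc
The Y box began 50 bases before the start of H2-Aa, 61 before that of H2-Eb1 and 63 before that of H2-DMb1. Neither motif was found before either start of H2-DMa. Of 32851 promoters in the same table, 37.3% hold the X-like core, 7.23% hold the Y box and 0.107% (35 promoters) hold the core 20 to 30 bases before the box on the same strand. A match describes letters only and shows no binding. The genes of the cluster lie in the order H2-Oa, H2-DMa, H2-DMb2, H2-DMb1, H2-Ob, H2-Ab1, H2-Aa, H2-Eb1 and H2-Eb2 on chromosome 17.

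Levels below are log2 probeset signals per pool, the mean of its 2 arrays in 9 pools and 1 array in 3. An array's median lay between 7.03 and 7.21. The 2 arrays of a pool differed by a median of 0.12 for these genes. The largest gap was 0.69, between 9.24 and 8.55 for H2-Aa in Rptor KO CSC. The targeted genes were read by probesets that sum over a whole transcript, so a floxed exon is not resolved. Tsc1 was 8.16 in TSC1 KO QSC against 8.34 to 8.69 in WT QSC. Rptor in Rptor KO CSC was 8.85 against 9.43 to 9.84 in WT CSC, Met in cMet KO CSC was 10.13 against 10.63 to 10.94, and in the QSC of its knockout Rptor (9.19) lay among the WT QSC pools. Met in the library labelled cMet KO QSC was 10.25, above all 3 WT QSC pools (9.93 to 10.11), so the arrays do not show the loss of cMet there. Pax7, Myf5 and the other 12 satellite cell markers had a mean log2 signal between 11.06 and 11.98 in every pool. That mean was lower in WT CSC at 2.5 days (11.06 to 11.27) than in WT QSC (11.49 to 11.96). Between these groups Chodl differed by -1.28, Calcr by -1.16 and Pax7 by -1.07 (limma adjusted p = 0.00175, 0.00925 and 0.0183). Itga7 (0.49), Myod1 (0.31) and Des (0.13) were higher in WT CSC but did not pass the test.

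H2-Aa, the alpha chain of the class II molecule I-A, was 8.65, 8.89 and 8.58 in the WT QSC pools and 8.13, 8.16 and 7.64 in the WT CSC pools at 2.5 days. It was 6.83 in WT CSC at 28 days, 7.95 in TSC1 KO QSC, 8.56 in Rptor KO QSC, 8.89 in Rptor KO CSC, 8.72 in the QSC of the cMet knockout and 10.41 in its CSC. The cMet KO CSC pool stood above all others and the 28 day pool below all others. The Rptor KO CSC, cMet KO QSC and Rptor KO QSC pools lay within 1 SD of the WT QSC range, and the TSC1 KO pool lay among the WT CSC pools.

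H2-Ab1, the I-A beta chain, was 8.69, 8.55 and 8.94 in WT QSC and 8.31, 8.34 and 8.10 in WT CSC at 2.5 days. Its remaining levels were 7.25 in WT CSC at 28 days, 7.80 in TSC1 KO QSC, 9.01 in Rptor KO QSC, 9.12 in Rptor KO CSC, 8.67 in the QSC of the cMet knockout and 10 in its CSC. The highest and lowest pools were the same as for its partner chain, but the TSC1 KO pool here lay below every WT CSC pool at 2.5 days. Both Rptor KO pools lay just above the WT QSC pools.

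H2-Eb1, the I-E beta chain, was 8.56, 8.69 and 8.74 in WT QSC and 8.26, 8.30 and 8.18 in WT CSC at 2.5 days. It was 8.06 in WT CSC at 28 days, 8.04 in TSC1 KO QSC, 8.90 in Rptor KO QSC, 9.05 in Rptor KO CSC, 8.81 in the QSC of the cMet knockout and 9.31 in its CSC. The order of groups resembled that of H2-Ab1 on a narrower scale, and the 28 day and TSC1 KO pools differed by less than 1 SE. C57BL6 mice lack a working I-E alpha chain, and the probeset of that chain, H2-Ea, was under the filter, between 5.40 and 5.94 in all 12 pools.

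H2-DMa, the alpha chain of the peptide editor H2-DM, was 6.68, 6.37 and 6.50 in WT QSC and 6.34, 6.14 and 6.17 in WT CSC at 2.5 days. It was 6.10 in WT CSC at 28 days, 6.55 in TSC1 KO QSC, 6.98 in Rptor KO QSC, 7.04 in Rptor KO CSC, 6.53 in the QSC of the cMet knockout and 7.20 in its CSC. Unlike the I-A chains, it was not low in the TSC1 KO pool. Its mean of 6.55 lay close to the filter level of 6.45, and signals near the low end of an array hold a share of background that narrows log2 differences, whose part was not tested.

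Cd74, the invariant chain, was 9.58, 8.56 and 8.98 in WT QSC and 8.42, 8.38 and 8.0 in WT CSC at 2.5 days. It was 7.77 in WT CSC at 28 days, 8.70 in TSC1 KO QSC, 8.89 in Rptor KO QSC, 9.23 in Rptor KO CSC, 8.93 in the QSC of the cMet knockout and 10.23 in its CSC. The WT QSC pools were spread more widely for Cd74 (SD 0.51, n = 3) than for the other 5 genes, and the QSC pools of all 3 knockouts fell inside that spread.

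Ciita, the transactivator, was 6.83, 6.83 and 6.85 in WT QSC and 6.61, 6.76 and 6.71 in WT CSC at 2.5 days. It was 6.91 in WT CSC at 28 days, 6.66 in TSC1 KO QSC, 6.95 in Rptor KO QSC, 6.87 in Rptor KO CSC, 6.70 in the QSC of the cMet knockout and 6.82 in its CSC. Its level was thus mid-range in the pool where the chain genes were highest and near its top in the pool where they were mostly lowest. This order is poorly resolved. The mean of Ciita, 6.79, lay close to the filter level of 6.45, and its pools spanned only 0.35. The 2 arrays of the 28 day pool alone differed by 0.18.

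**Figure D1:**
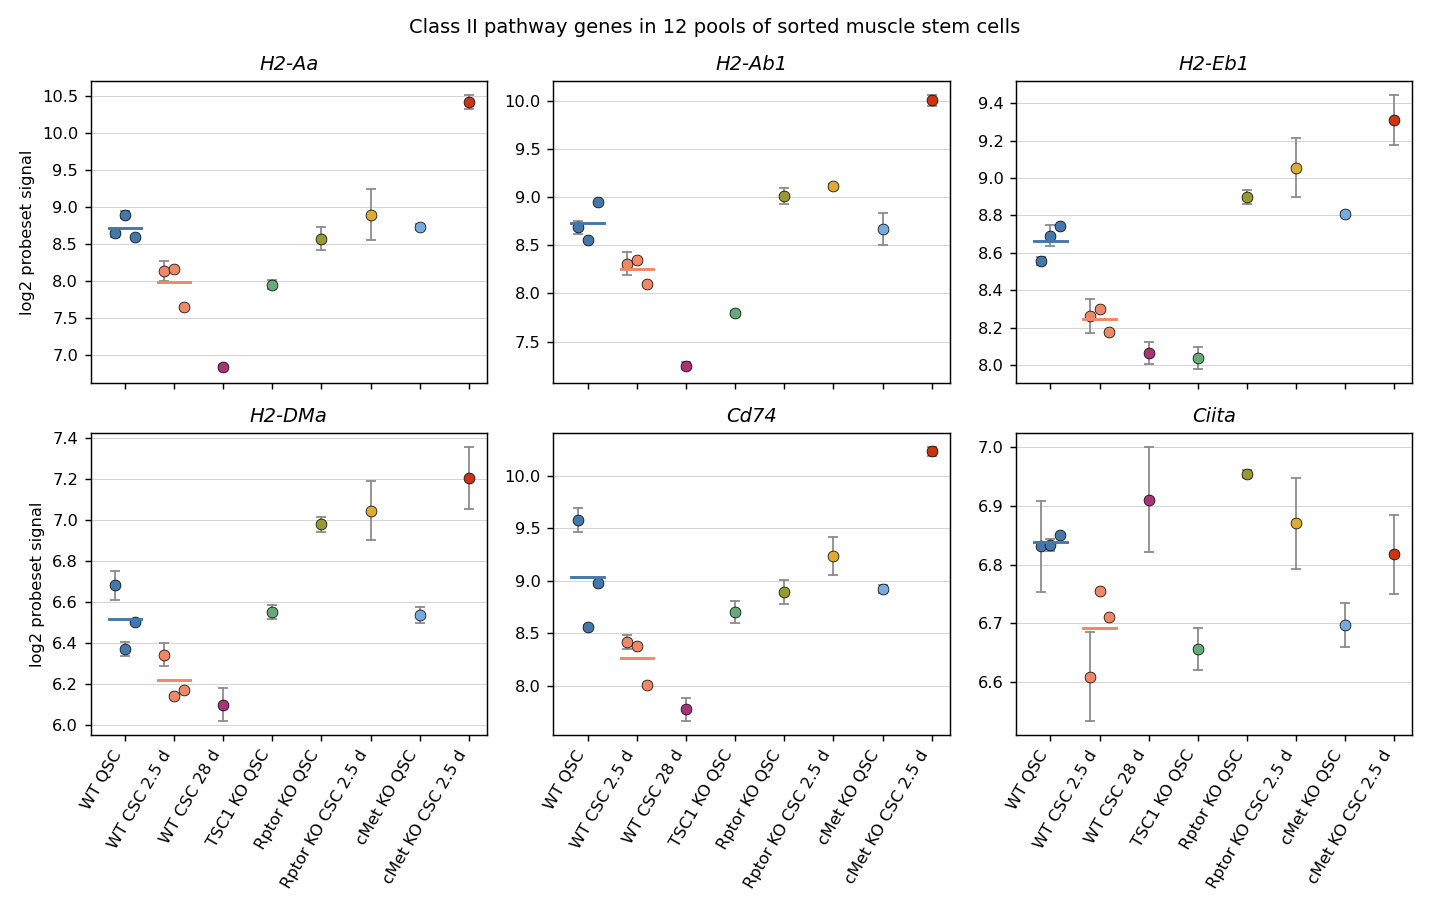
Log2 probeset signal (vertical axis) of the 6 measured genes in 12 pools of sorted muscle stem cells, by group. Points are pools, grey bars run between the 2 arrays of a pool, and horizontal lines are means of the groups with 3 pools. The cMet KO CSC pool is highest for all genes but Ciita, at 10.41 for H2-Aa.

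The genes differed widely in how far they moved. From the lowest to the highest pool the log2 range was 3.58 for H2-Aa, 2.75 for H2-Ab1, 2.46 for Cd74, 1.27 for H2-Eb1, 1.11 for H2-DMa and 0.35 for Ciita, beside a median of 0.82 over all tested genes. Of all tested genes, 99.7% had a smaller range than H2-Aa and 4.44% had a smaller range than Ciita. As a description over the 12 pools, which share the WT groups and 1 very high pool, Pearson's r was 0.946 between H2-Aa and H2-Ab1 (Spearman's rho 0.853), 0.937 between H2-Ab1 and H2-Eb1 (rho 0.958) and 0.9 between H2-Aa and Cd74 (rho 0.811). Without the cMet KO CSC pool these r values were 0.908, 0.908 and 0.812. Between Ciita and the other 5 genes r ran from 0.123 to 0.447.

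In WT cells 2 of the 6 class II genes, H2-Aa and H2-Eb1, fell 2.5 days after a distant injury, and each of these calls was lost when certain single pools were left out. H2-Aa fell by 0.73 on the log2 scale (SE 0.17, a 1.66-fold lower signal, limma adjusted p = 0.0205) and H2-Eb1 by 0.42 (SE 0.12, 1.34-fold, limma adjusted p = 0.0446). The difference for Cd74 was -0.77 ± 0.24 (SE, limma adjusted p = 0.0577) and for H2-Ab1 -0.48 ± 0.15 (limma adjusted p = 0.0528), both just above the threshold of 0.05. H2-DMa (-0.30 ± 0.14) and Ciita (-0.15 ± 0.12) had adjusted p of 0.167 and 0.440 in the same limma fit. In bulk samples, fewer cells of a type and less RNA per cell cannot be told apart.

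Thus 2 of 6 genes fell and none rose, where 18% of all tested genes changed and 7.36% fell. In all 6 the 3 WT CSC pools lay below the 3 WT QSC pools with no overlap, which held in this direction for 19.1% of all tested genes. The median difference was -0.45, beside -0.05 over all tested genes. These WT QSC pools are the same ones that the 28 day pool was set against when the genes were chosen. The call of H2-Aa was lost without WT CSC pool 3 (-0.56, limma adjusted p = 0.0778), and that of H2-Eb1 was lost without any one of the 3 WT CSC pools or without WT QSC pool 2 or 3 (limma adjusted p 0.0690 to 0.170).

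Some regulators of these promoters were lower at 2.5 days as well. Of 7 promoter factors, 2 fell and none rose: Rfx5, the DNA-binding subunit of RFX, by 0.97 and Nfyb, a subunit of NF-Y, by 0.76 (limma adjusted p = 0.0051 and 0.0127). Of 13 measured genes of the interferon gamma axis, 7 fell and none rose (median -0.60). Among the 7 were Irf1, an interferon-induced transcription factor that acts on the Ciita promoter, by 1.03, and the chemokine genes Cxcl10 by 1.35 and Cxcl9 by 0.76. Of 6 tested genes of class II turnover and costimulation, Cd83, which stabilises surface class II, fell by 0.65, as did Icosl (by 0.60) and Cd274 (by 0.55), while the costimulator Cd80 rose by 0.68. None of 9 peptide-processing genes, none of 12 genes of the class I pathway and not H2-Ob, the 1 tested gene of the other class II chains (-0.39, limma adjusted p = 0.0954), passed the test.

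Markers of other cells moved in the same comparison. Of 14 endothelial markers 10 fell (median -1.16), and their summed signal on the linear scale was 4363 to 5620 in WT CSC against 9034 to 14254 in WT QSC. Of 11 fibro-adipogenic markers 5 fell. Markers of the cells that make most class II moved less: 1 of 9 pan-leukocyte markers fell (Cd53, by 0.47), 2 of 11 macrophage and monocyte markers fell (Mertk and Lyve1), and none of 5 dendritic cell, 4 B cell, 2 T and NK cell and 3 neutrophil markers passed the test. The summed macrophage and monocyte signal overlapped (2572 to 2906 in WT CSC, 2021 to 3220 in WT QSC). So did the pan-leukocyte sum (1250 to 1533 and 1310 to 1601) and the neutrophil sum (495 to 594 and 534 to 832). Lower without overlap were the sums of B cell (612 to 711 and 723 to 835), dendritic cell (1058 to 1099 and 1144 to 1237) and T and NK cell markers (576 to 622 and 685 to 713). Of single tested genes, 19.1% were lower without overlap. That share is no scale for these sums, which run over whole lists and include many genes under the filter. No marker is at 0 on this scale, and the part of these cells in the class II difference was not tested.

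At 28 days after the injury, the single WT CSC pool held the lowest signal of the 12 pools for H2-Aa, H2-Ab1, H2-DMa and Cd74. Against WT QSC, H2-Aa differed by -1.88 ± 0.24 (SE), a 3.67-fold lower signal, H2-Ab1 by -1.48 ± 0.21, Cd74 by -1.27 ± 0.35, H2-Eb1 by -0.60 ± 0.17, H2-DMa by -0.42 ± 0.19 and Ciita by 0.07 ± 0.17. Their median was -0.93, beside -0.01 over all tested genes, and 0% of tested genes passed the test in this comparison. Both arrays of the pool gave nearly the same value for H2-Aa (6.80 and 6.86), which speaks to the hybridisation and not to the spread between mice.

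Set against WT CSC at 2.5 days, the 28 day pool was lower again, with differences of -1.14 ± 0.24 for H2-Aa and -1.0 ± 0.21 for H2-Ab1, and of -0.49 for Cd74, -0.18 for H2-Eb1, -0.12 for H2-DMa and 0.22 for Ciita. In this comparison 8.38% of tested genes passed. The promoter factors and the interferon axis ran the other way, with medians of 0.37 over 7 genes and 0.25 over 13. Within the 28 day pool all 9 tested pan-leukocyte markers were below the WT QSC mean (median -0.56, summed signal 1065). So were all 11 tested macrophage and monocyte markers (median -0.28, summed signal 1949). Some of both lists differed by less than 1 SE, such as Ptpn6 (-0.07) and Fcgr1 (-0.05). The mean log2 signal of dendritic cell markers was 6.52 (6.50 to 6.57 in WT QSC) and of T and NK cell markers 6.06 (6.06 to 6.10). For B cell markers it was 6.01 (6.07 to 6.28) and for neutrophil markers 5.84 (5.80 to 6.35). The endothelial median was -1.20. The part of these cells in the low class II signal was not tested.

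**Figure D2:**
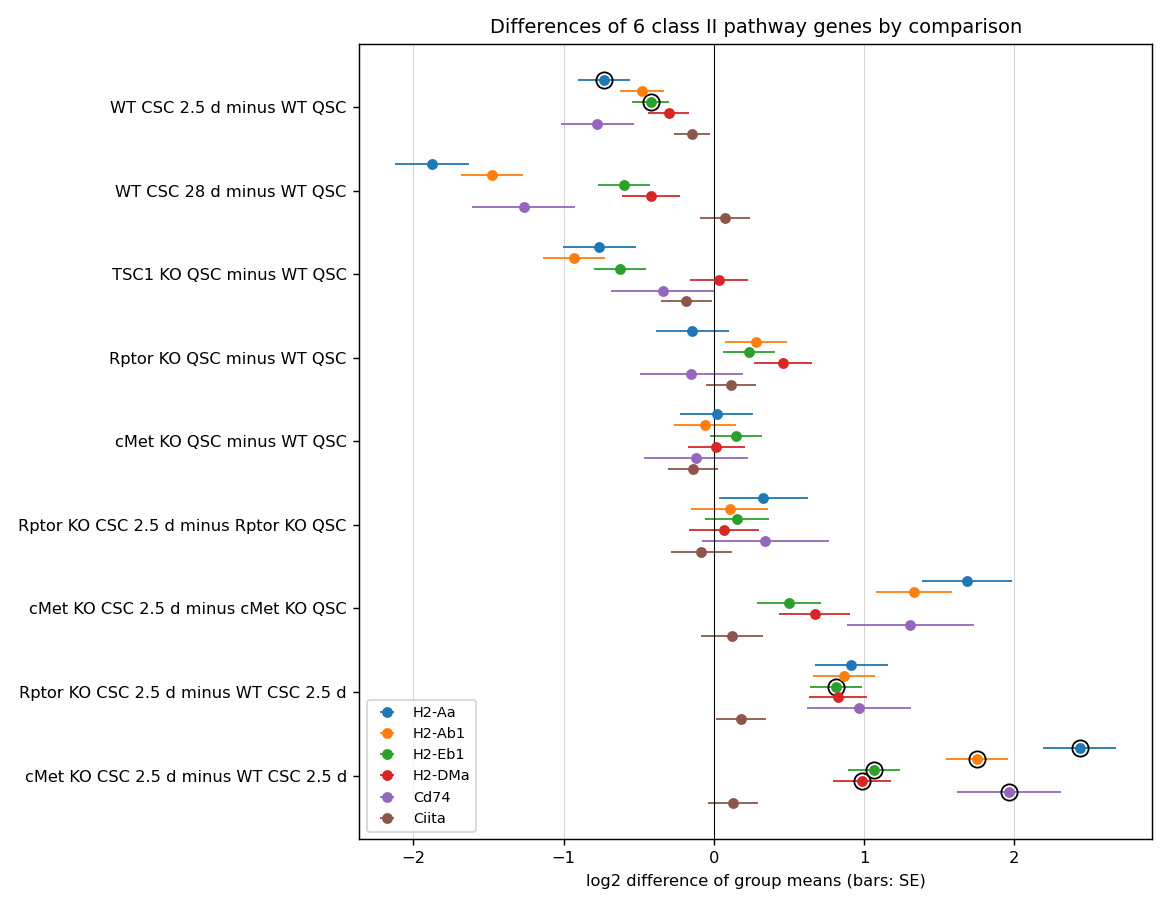
Log2 difference of group means (horizontal axis) for the 6 genes in 9 comparisons, with bars of 1 SE from the limma fit. Ringed points have an adjusted p under 0.05 (none is ringed in the 28 day comparison, which is not tested for these genes). Differences run from -1.88 for H2-Aa at 28 days to 2.44 for H2-Aa in cMet KO CSC against WT CSC.

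In the knockout groups of noninjured mice no class II gene passed the test. In TSC1 KO QSC (TSC1 inhibits mTORC1), H2-Ab1 differed from WT QSC by -0.93 ± 0.21 (SE), H2-Aa by -0.76 ± 0.24 and H2-Eb1 by -0.63 ± 0.17, with limma adjusted p of 0.298, 0.464 and 0.394. Cd74 (-0.34), Ciita (-0.18) and H2-DMa (0.04) differed by little more than 1 SE or less. None of 6 was called by limma, where 0.0143% of all tested genes were called. An unadjusted p under 0.05 was found for 3 of 6 and for 1231 of all 13956 tested genes. With every array entered and the pool as a random block, H2-Ab1 was called (adjusted p = 0.0211). In the same pool all 9 tested pan-leukocyte markers were below the WT QSC mean (median -0.41), and 6 of 11 measured ones were at their lowest of the 12 pools, beside 9.97% of all tested genes. Ptprc (CD45), carried by all leukocytes, was 6.38 there against 6.95 to 7.31 in WT QSC. The summed macrophage and monocyte signal was 2372, inside the WT QSC range of 2021 to 3220. The dendritic cell sum was 1027 (1144 to 1237 in WT QSC) and the B cell sum 625 (723 to 835). The T and NK cell sum was 626 (685 to 713) and the neutrophil sum 510 (534 to 832). The part of leukocytes in the lower I-A and I-E signal was not tested.

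In Rptor KO QSC (Rptor encodes a subunit that mTORC1 requires), the 6 differences ran from -0.15 to 0.46, the highest being H2-DMa (0.46 ± 0.19 SE, limma adjusted p = 0.411). In the library labelled cMet KO QSC (cMet is the receptor of hepatocyte growth factor), they ran from -0.14 to 0.14. None was called in either comparison by limma, where 0.122% and 0% of all tested genes were called. An unadjusted p under 0.05 was found for 1 and 0 of 6, beside 1573 and 185 of all 13956 tested genes. For H2-Aa the 95% interval of the difference was -0.70 to 0.41 in Rptor KO QSC and -0.53 to 0.57 in cMet KO QSC, so shifts of that size cannot be told from none.

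The contralateral cells of the cMet knockout carried the most class II signal in the series. Against WT CSC at 2.5 days, H2-Aa rose by 2.44 (SE 0.24, 5.41-fold, limma adjusted p = 0.00173) and Cd74 by 1.97 (SE 0.35, 3.91-fold, adjusted p = 0.0135). H2-Ab1 rose by 1.75 (SE 0.21, 3.37-fold, limma adjusted p = 0.00311), H2-Eb1 by 1.07 (SE 0.17, adjusted p = 0.00968) and H2-DMa by 0.99 (SE 0.19, adjusted p = 0.0213). Ciita did not pass (0.13 ± 0.17, limma adjusted p = 0.744). Thus 5 of 6 rose, where 6.74% of all tested genes changed and 3.4% rose, with a median of 1.41 for the 6 and 0.00 for all tested genes. H2-DMa was not called without WT CSC pool 2 or 3 (limma adjusted p = 0.0759 and 0.0787), while the other 4 calls held when any one WT pool was left out.

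Within the same strain label, cMet KO CSC exceeded cMet KO QSC by 1.69 ± 0.30 (SE) for H2-Aa, 1.33 ± 0.25 for H2-Ab1 and 1.31 ± 0.42 for Cd74. H2-DMa differed by 0.67 ± 0.24, H2-Eb1 by 0.50 ± 0.21 and Ciita by 0.12 ± 0.20. This sets 1 pool against 1, with the spread borrowed from the WT pools. limma called none of 6 (adjusted p of 1 for each), although 5 had an unadjusted p under 0.05. It called 0% of all tested genes, and 75 of 13956 had an unadjusted p under 0.05. The 95% interval of the H2-Aa difference was 1.01 to 2.36 and that of H2-Ab1 0.76 to 1.91.

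The CSC minus QSC difference (the response) had opposite signs in WT and in the cMet KO pools, which are 1 per group and of another strain. H2-Aa was lower in CSC than in QSC of WT and higher in CSC than in QSC of the cMet knockout. The difference of the responses was 2.42 ± 0.34 (SE) for H2-Aa (limma adjusted p = 0.0487), 1.81 ± 0.29 for H2-Ab1 (adjusted p = 0.0604), 2.08 ± 0.49 for Cd74 (adjusted p = 0.152), 0.97 ± 0.27 for H2-DMa (adjusted p = 0.241) and 0.92 ± 0.25 for H2-Eb1 (adjusted p = 0.211). Thus 1 of 6 was called, where 0.158% of all tested genes were called and 0.0358% had a larger difference in the knockout. That call of H2-Aa was lost without any WT CSC pool and without WT QSC pool 1 or 3 (limma adjusted p 0.0636 to 0.176).

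Other genes of the pathway rose in part in cMet KO CSC against WT CSC. Of the interferon gamma axis 6 of 13 rose and none fell, with a median of 0.84: Iigp1, an interferon-induced GTPase, by 2.10, Cxcl9 by 1.92, the kinase Jak2 by 1.21, Irgm1 by 1.18, and the transcription factors Irf8 by 1.10 and Irf1 by 0.84. The inhibitory ligand Cd274 rose by 1.30 and Cd83 by 0.95, as 2 of 6 genes of turnover and costimulation. B2m, the light chain of class I, rose by 0.81 as 1 of 12 class I pathway genes. None of 7 promoter factors (median 0.35) or 9 peptide-processing genes (median 0.07) passed, and H2-Ob differed by 0.78 (limma adjusted p = 0.0559). Against the cMet KO QSC pool, the interferon axis had a median of 0.06, with none of 13 called by limma.

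Markers of other cells were also high in the cMet KO CSC pool. Against WT CSC 3 of 9 pan-leukocyte markers rose (Cd53 by 2.20, Ptprc by 1.34 and Cd52 by 1.11), as did 1 of 4 B cell markers (Cd79b, a chain of the B cell receptor, by 1.12), 1 of 5 dendritic cell markers (Ccr7, the homing receptor of mature dendritic cells, by 1.36), 3 of 11 macrophage and monocyte markers (Lyve1 by 1.91, Mertk by 1.17 and Cd14 by 1.08), 1 of 3 neutrophil markers (Ngp by 1.92), 11 of 14 endothelial markers (median 1.77, Pecam1 by 2.28) and 5 of 11 fibro-adipogenic markers (Lum by 2.73). None of the 2 tested T and NK cell markers passed. Of 10 measured B cell markers 6 were at their highest of the 12 pools there, most of them under the filter: Cd79a was 6.72 against 5.25 to 5.98 in the other pools, Ms4a1 (CD20) 6.79 against 4.91 to 5.96 and Bank1 7.17 against 5.54 to 6.20. By comparison, 7.25% of all tested genes were highest in this pool. The summed B cell signal was 1125, against 612 to 835 in the other 11 pools. The pan-leukocyte sum was 2567, against 1250 to 1533 in WT CSC and 1529 in cMet KO QSC. The endothelial sum was 19472, against 4363 to 5620 in WT CSC and 15392 in cMet KO QSC. Set against cMet KO QSC, of the same strain label, Cd53 was higher by 1.49, Ccr7 by 1.03, Cd79b by 0.83, Ptprc by 0.77 and Pecam1 by 0.40. None of these passed the test in that comparison of 1 pool against 1. C1qa (0.08) and Zbtb46 (-0.14) differed there by less than 1 SE. Tek, another endothelial marker, differed by -0.32 there. Itgax (CD11c), which marks dendritic cells, was 6.19, within the range of the other pools (5.81 to 6.40). The part of these cells in the class II difference was not tested.

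Rptor KO CSC showed another pattern. Against WT CSC at 2.5 days H2-Eb1 rose by 0.81 (SE 0.17, 1.75-fold, limma adjusted p = 0.0387). The difference was 0.83 ± 0.19 for H2-DMa (adjusted p = 0.0502), 0.87 ± 0.21 for H2-Ab1 (adjusted p = 0.0555), 0.92 ± 0.24 for H2-Aa (adjusted p = 0.0748), 0.97 ± 0.35 for Cd74 (adjusted p = 0.162) and 0.18 ± 0.17 for Ciita. Thus 1 of 6 was called, where 3.9% of all tested genes changed and 0.924% rose, and the single call was lost without any one of the WT CSC pools (limma adjusted p 0.0801 to 0.141). Against Rptor KO QSC the differences ran from -0.08 to 0.34, with none of 6 called by limma and 0.258% of all tested genes called. None of 6 had an unadjusted p under 0.05, beside 706 of all 13956 tested genes. The Rptor KO response minus the WT response was 1.06 ± 0.34 for H2-Aa (limma adjusted p = 0.875). None of 6 was called there, as 0% of all tested genes were. An unadjusted p under 0.05 was found for 3 of 6 and for 620 of all 13956 tested genes.

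In this pool macrophage genes were far higher than in any other. Of 15 measured macrophage and monocyte markers 12 were at their highest of the 12 pools, beside 7.01% of all tested genes, and 9 of 11 tested ones rose against WT CSC. Lyz2 (lysozyme) rose by 3.05, C1qb by 2.71, C1qc by 2.23, Cd14 by 2.00, Cd68 by 1.99, Csf1r (the receptor of macrophage colony-stimulating factor) by 1.70, C1qa by 1.39, Itgam by 1.27 and Fcgr1 by 0.75. Their summed signal was 12957, against 2572 to 2906 in WT CSC, 3046 in Rptor KO QSC and 4758 in cMet KO CSC. Of 9 pan-leukocyte markers 5 rose, led by Tyrobp (2.65) and Fcer1g (2.62), the signalling adaptors of myeloid receptors. Of 9 peptide-processing genes 4 rose: Ctss, the cathepsin that removes the invariant chain in antigen-presenting cells, by 2.73, Ctsh by 1.14, Ctsd by 0.98 and Ctsb by 0.95. None of the tested B cell, dendritic cell or T and NK cell markers, and none of 13 interferon axis genes, passed. The part of these cells in the class II signal was not tested.

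The 2 CSC pools with the most class II signal therefore differed in what accompanied it. Csf1r was 8.61 in Rptor KO CSC and 7.41 in cMet KO CSC, and C1qa was 8.20 and 6.94, respectively. Ptprc was 7.42 and 8.14, while the summed signal of the pan-leukocyte list ran the other way, at 4018 and 2567. Pecam1 (CD31), an endothelial marker, was 8.38 and 10.20. H2-Aa was 8.89 and 10.41. These are 2 single pools that differ in genotype and strain, and the part of macrophages or of other cells in their class II signal was not tested.

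**Figure D3:**
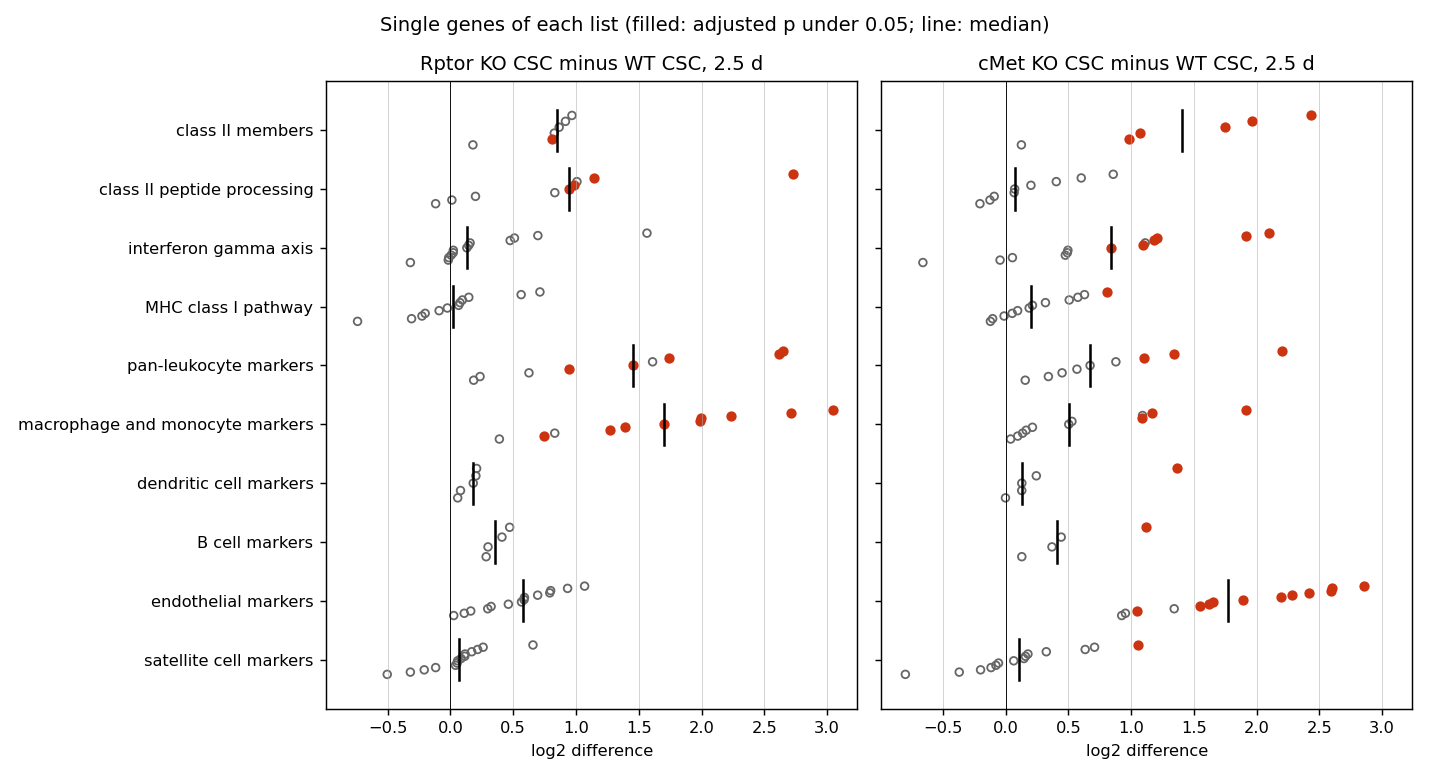
Log2 difference (horizontal axis) of each tested gene of 10 lists, in Rptor KO CSC minus WT CSC (left) and cMet KO CSC minus WT CSC (right) at 2.5 days. Filled points have a limma adjusted p under 0.05 and vertical lines are list medians. The macrophage list has 9 of 11 genes called on the left and 3 of 11 on the right, and the class II genes 1 of 6 and 5 of 6.

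Over the 12 pools, the mean of the 6 genes was 8.16, 7.98 and 8.10 in WT QSC, 7.68, 7.68 and 7.47 in WT CSC at 2.5 days, 7.16 at 28 days, 7.62 in TSC1 KO QSC, 8.22 in Rptor KO QSC, 8.37 in Rptor KO CSC, 8.06 in the QSC of the cMet knockout and 9.0 in its CSC. The 5 other genes whose course was most like it by Pearson's r were Ifi207 (0.907), Plek (0.894), Cxcl9 (0.887), Sfrp5 (0.886) and Slc1a1 (0.886). All 5 were highest in cMet KO CSC. Without that pool r was 0.823, 0.811, 0.781, 0.847 and 0.795. Ifi207 belongs to an interferon-inducible family, Plek encodes pleckstrin of blood cells, and Sfrp5 encodes a secreted inhibitor of Wnt signalling.

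Set against marker lists in the same way, the mean of the 6 genes had r of 0.839 with the B cell list mean (rho 0.783), 0.776 with pan-leukocyte markers (rho 0.839), 0.768 with endothelial markers (rho 0.692), 0.751 with neutrophil markers (rho 0.622), 0.727 with T and NK cell markers (rho 0.727), 0.724 with dendritic cell markers (rho 0.727) 0.643 with macrophage and monocyte markers (rho 0.832) and 0.628 with fibro-adipogenic markers (rho 0.601). With satellite cell markers r was -0.04 (rho 0.02). Without the cMet KO CSC pool r was 0.731 for pan-leukocyte, 0.676 for B cell, 0.673 for endothelial, 0.662 for dendritic cell, 0.66 for macrophage and monocyte, 0.627 for neutrophil, 0.569 for T and NK cell, 0.481 for fibro-adipogenic and 0.13 for satellite cell markers, so that the B cell list no longer led. For the 7 promoter factors r was 0.145, and for the interferon gamma axis 0.569. The points share the pools and their RNA, so these are descriptions of 12 pools.

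**Figure D4:**
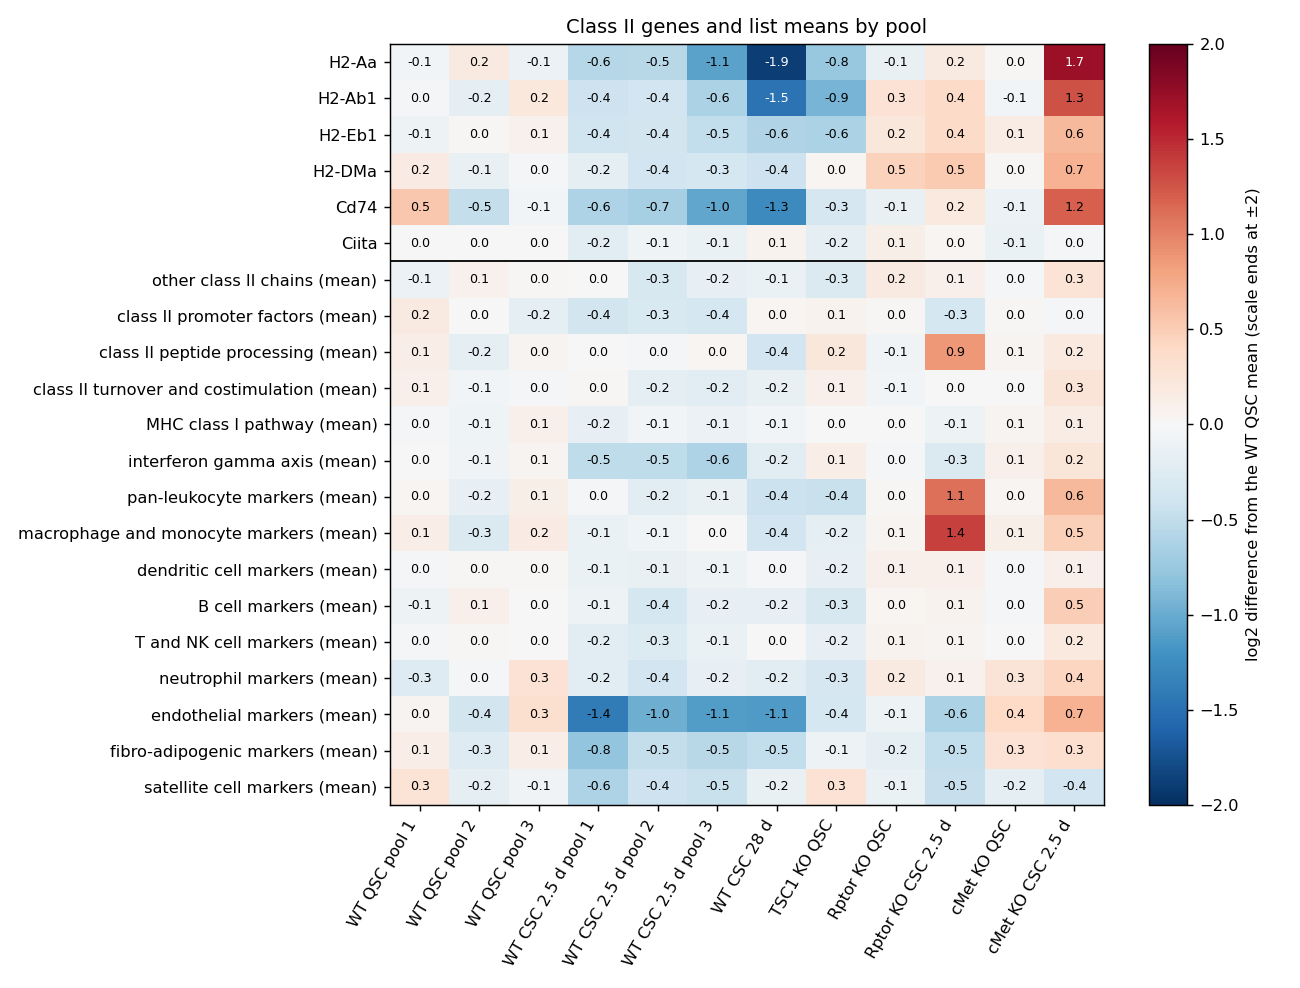
Log2 difference of each pool (columns) from the WT QSC mean, for the 6 genes and for the mean of 15 lists (rows). Colours run from blue (lower) to red (higher) and end at 2 in either direction. The rows of H2-Aa, H2-Ab1 and Cd74 are darkest red in cMet KO CSC, while those of the macrophage and pan-leukocyte lists are darkest red in Rptor KO CSC.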

How the data were processed

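The authors deposited log2 probeset signals, for which the submitters' processing notes name RMA and Affymetrix Expression Console. The version, the library files, the genome build and which arrays were normalized together are not stated in the sources used here. Of 35556 probesets, 21789 carry 1 gene symbol in the platform annotation, 1621 carry several and 12146 are not listed there. Only the first were named, and a gene with several was read from its brightest.

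Technical arrays were averaged, so the pool was the unit. Only genes with a mean at or above the 30th percentile, log2 6.45, were tested. All 12 pools entered 1 linear model with 8 group means (limma 3.58.1, R 4.3.3, lmFit then eBayes). p was adjusted by Benjamini-Hochberg over 13956 genes, and a call is an adjusted p under 0.05. Only the 3 WT QSC and 3 WT CSC pools give residual degrees of freedom (4, or 9.01 moderated), so a group of 1 pool is assumed to vary like them. Pools of a group are labelled as biological replicates. The number of arrays limits the precision. The fit was tested on simulated data in which all pools of a gene had the same spread. Of added log2 changes of 1, it recovered 94.6% in WT CSC against WT QSC at 2.5 days. In cMet KO CSC against cMet KO QSC it recovered 24.7%. With equal spread in all pools, the simulation could not test whether a group of 1 pool varies like the WT pools.

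The genes and all lists (promoter factors, peptide processing, turnover, class I, interferon axis, other chains, and markers of 9 cell types) were chosen with earlier results of these data known. Named beside the 7 genes are some, not all, of the list members that passed the test in a knockout comparison. Also named are up to 4 of each list in WT CSC against WT QSC, defining markers of other cells, and the 5 genes most alike in course. Alternatives were another normalization, centring, other filters, eBayes options, array handling and leaving out each WT pool. Summed signals are sums of linear signals over a list. Figures were drawn with matplotlib 3.10.9. Promoters are from RefSeq.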

Additional observations from a re-analysis of the deposited data

Results flagged for a closer look

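For H2-Aa the CSC minus QSC difference was not alike in the pools labelled cMet knockout and in WT. The cMet KO response exceeded the WT response by 2.42 ± 0.34 (SE) on the log2 scale, with a limma adjusted p of 0.0487. H2-Aa was lower in all 3 WT CSC pools than in all 3 WT QSC pools, and higher in the 1 cMet KO CSC pool than in the 1 cMet KO QSC pool. Both knockout groups have a single pool, and in cMet KO CSC markers of leukocytes, B cells and endothelium were high beside it, whose part was not tested. Strain and genotype cannot be told apart between cMet KO and WT, and the arrays do not show the loss of cMet in the QSC library. The call was also lost when any one WT CSC pool was left out. The adjusted p ran above 0.05 under centring (0.0737), with no filter (0.0727) and with a filter at the 50th percentile (0.0605).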

How the results depend on the processing

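Of the single-gene results, 915 kept direction and side of the threshold, 27 lost a call, 28 gained one, 17 changed sign and 9, all in the 28 day comparisons, moved by more than 1 SD of the WT QSC pools. In WT CSC 2.5 d against WT QSC 2 genes were called, 4 with quantile normalization again, with all arrays and the pool as a random block or with the first array of each pool, 1 under centring, with no filter or with trend and robust options, 0 to 3 without any one pool, and 2 with the replicate block, under which H2-Eb1 lost its call (adjusted p = 0.0614) and Cd74 gained one (0.0335). Pools share only a replicate number, with correlations of deviations of 0.319, -0.03 and -0.03. In Rptor KO CSC against WT CSC 1 was called, 3 with quantile normalization again or first arrays, 0 under centring, 5 with the random block and 0 to 3 without any one WT pool. For the cMet KO minus WT response 1 was called, 0 under centring, with no filter or with a filter at the 50th percentile, 3 with the random block and 0 to 2 without any one WT pool. In TSC1 KO QSC 0 were called and 1 with the random block. The 5 calls in cMet KO CSC against WT CSC ran from 4 to 5. At 28 days the median of -0.93 against WT QSC was -1.37 with a filter at the 50th percentile (which leaves fewer of the genes) and -1.05 to -0.83 without any one WT QSC pool, and that of -0.34 against WT CSC was -0.75 with the filter.

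The sign changes were of differences near 0. In cMet KO QSC H2-Aa (0.018) was -0.017 with quantile normalization again, -0.00262 under centring and -0.044 to 0.111 without any one WT QSC pool. There H2-DMa was -0.00323 under centring, -0.034 with first arrays and -0.056 to 0.0999 without any one pool, H2-Ab1 was 0.129 with first arrays and -0.145 to 0.0496 without any one pool, and Cd74 was -0.356 to 0.153 without any one pool. In Rptor KO QSC, with first arrays, H2-Aa was 0.04997 and Cd74 0.0103, and Cd74 ran from -0.389 to 0.12 without any one pool. In TSC1 KO QSC H2-DMa was -0.0118 with first arrays and -0.0385 to 0.118 without any one pool. Ciita in the Rptor KO minus WT response was -0.00724 with quantile normalization again and -0.076 with first arrays. The causes were not tested.

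Counts over all genes ran from 1194 to 3606 (2510 as reported) in WT CSC against WT QSC, 453 to 2354 (1169) for 28 d against 2.5 d, 25 to 1378 (544) in Rptor KO CSC and 314 to 2173 (941) in cMet KO CSC against WT CSC, 15 to 112 (36) in Rptor KO CSC against its QSC, 1 to 231 (2) in TSC1 KO QSC, 2 to 235 (17) in Rptor KO QSC and 0 to 357 (22) for the cMet KO minus WT response. They ran from 0 to 52, 0 to 2, 0 to 2 and 0 to 49 where none was reported, in 28 d against WT QSC, cMet KO QSC against WT QSC, cMet KO CSC against its QSC and the Rptor KO minus WT response. Groups of 1 pool have no spread of their own, and H2-DMa and Ciita are limited by low signals.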
